A study of Homo sapiens with 8 samples.

Results

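Toll-like receptors are membrane proteins that bind parts of microbes, and the genes described here are TLR1 to TLR8 together with CD14 and LY96, the co-receptors through which TLR4 senses bacterial lipopolysaccharide (LPS). The 10 genes were taken from the raw count table by matching each Ensembl identifier to its symbol. All 10 were found, each with a single identifier, among 78899 rows, and all 10 were among the 16249 genes that passed the low-count filter and were tested. TLR3 passed only through the tri-culture libraries, since its 4 mono-culture libraries lay under the filter level of 0.464 counts per 1000000.

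The samples were GFP-labelled human microglia derived from H1, an established embryonic stem cell line, sorted by fluorescence 2 weeks after plating. The title of every sample also calls them iPSC-derived. Mono-culture microglia (4 libraries) were grown alone with added IL-34 at 100 ng/mL and M-CSF at 10 ng/mL. Tri-culture microglia (4 libraries) were sorted from a culture with other cells, which the labels used here do not name, and received no added cytokine. Each of 4 independent batches gave 1 library of each kind. By the labels all the sorted microglia come from 1 line. The culture format and the added cytokines changed together, so their parts in a difference cannot be told apart.

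Microglia, the macrophages that live in the brain, use Toll-like receptors as early sensors of infection and tissue damage. TLR1, TLR2, TLR4, TLR5 and TLR6 act at the cell surface on lipids and proteins of bacteria, while TLR3, TLR7 and TLR8 read RNA inside endosomes. TLR2 works in pairs with TLR1 or TLR6. For TLR4, CD14 hands LPS to LY96 (MD-2), the lipid-binding subunit that sits on the receptor, and most of these receptors signal through the adaptor MYD88 to NF-kB and interferon regulatory factors.

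The 8 libraries held between 17037481 and 33363972 counts, with 4.84% to 8.44% of counts from mitochondrial genes. Levels are given as CPM (counts per 1000000 counts) over library sizes scaled by the trimmed mean of M-values (TMM), as mean ± SD of the 4 libraries of a group, and differences as the fitted log2 fold change, tri-culture minus mono-culture, ± its standard error (SE). Adjusted p-values come from edgeR's quasi-likelihood test with Benjamini-Hochberg adjustment over all tested genes, and a gene counts as called under 0.05. The pan-leukocyte gene PTPRC (620.1 ± 46.8 and 632 ± 61.9 CPM) and SPI1, which encodes the myeloid factor PU.1 (485 ± 49.6 and 486 ± 50.9 CPM), were not called (edgeR adjusted p = 0.909 and 0.988).

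Markers of other cells moved with the culture format. Of 12 astrocyte markers 9 were called higher and 1 lower, and their summed level went from 236 to 309 CPM in mono-culture to 735 to 864 CPM in tri-culture. AQP4 and ALDH1L1 had no count in mono-culture, and SLC1A3, an astrocyte gene that mono-culture also held, was not called (109 and 81.8 CPM). The mono-culture sums are mostly S100B and SLC1A3. S100B, which mono-culture thus also held, went from 124 to 359 CPM, beside GFAP from 0.296 to 167 CPM and NDRG2 from 16.5 to 125 CPM. Of 8 monocyte markers 6 were tested and 5 called higher, with sums of 36.2 to 58.0 and 137 to 335 CPM. Of 10 dendritic cell markers 7 were tested, with 5 called higher and 1 lower, and sums of 74.9 to 96.9 and 336 to 485 CPM; FLT3 had no count in mono-culture and XCR1 none in tri-culture. Of 10 neuronal markers 5 were tested, with 3 called higher and 1 lower, and sums of 21.9 to 42.0 and 15.4 to 40.4 CPM. These sums are mostly MAP2 and SYT1 in mono-culture; SNAP25, STMN2, DCX and GAP43 had no count there, and GAP43 had 75, 177, 187 and 139 counts in the tri-culture libraries. Of 6 mesenchymal markers 2 were tested and none called, with sums of 6.80 to 26.4 and 3.71 to 354 CPM. COL3A1 was at 2.53, 0, 3.34 and 0 CPM in mono-culture and 203, 0, 222 and 81.7 CPM in tri-culture (edgeR adjusted p = 0.0505). COL1A2 was at 14.5 and 14.8 CPM. COL1A1, DCN, LUM and PDGFRB were not tested, and DCN and LUM had no count in tri-culture replicate 2. The lack of a call is therefore no sign that the groups were alike. Of 12 microglia and macrophage markers 4 were called higher and 1 lower, with sums of 4102 to 4982 and 5419 to 6881 CPM. The 4 higher were CX3CR1 (120 to 833 CPM), P2RY12, TREM2 and C1QB, and the 1 lower was ITGAM (173 to 61.3 CPM). PTPRC and SPI1 belong to this list, and their uncalled levels do not stand for the whole of it. Some of the markers called higher lay under the filter level in all 4 mono-culture libraries and were tested only through tri-culture, where they are high: 5 of the 9 for astrocytes, 3 of the 5 for monocytes, 2 of the 5 for dendritic cells and all 3 for neurons. The counts of calls therefore describe these lists and support no difference. The part of these markers in the results below was not tested. In sorted bulk RNA, fewer cells of a type and less RNA per cell cannot be told apart.

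In tri-culture, TLR1 and TLR8 rose and CD14 and LY96 fell, while the other 6 genes did not pass the test. The 4 called genes are 40% of the 10, beside 26.9% of all tested genes called in either direction, 13.9% called higher and 13.0% called lower. With library size in place of TMM scaling, TLR3 and TLR7 were also called higher, giving 4 higher and 2 lower; that scaling moved the median over all tested genes from 0.02 to 0.12 (log2). The median log2 fold change of the 10 genes was 0.11, and their median absolute value was 0.45 beside 0.31 over all tested genes. On the TMM-scaled values the 4 libraries of each group did not overlap for 6 of the genes (TLR1, TLR3, TLR4, TLR7, CD14 and LY96), beside 29.4% of all tested genes. On CPM over the plain library totals this held for 4 (TLR1, TLR3, TLR8 and LY96), beside 30.2%, so whether the groups overlap depended on the scale for TLR4, TLR7, TLR8 and CD14. TLR3 is in both of these counts and in the 4 called higher with library size. It was tested only through tri-culture, where it is high, so it adds no support to them.

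**Figure D1:**
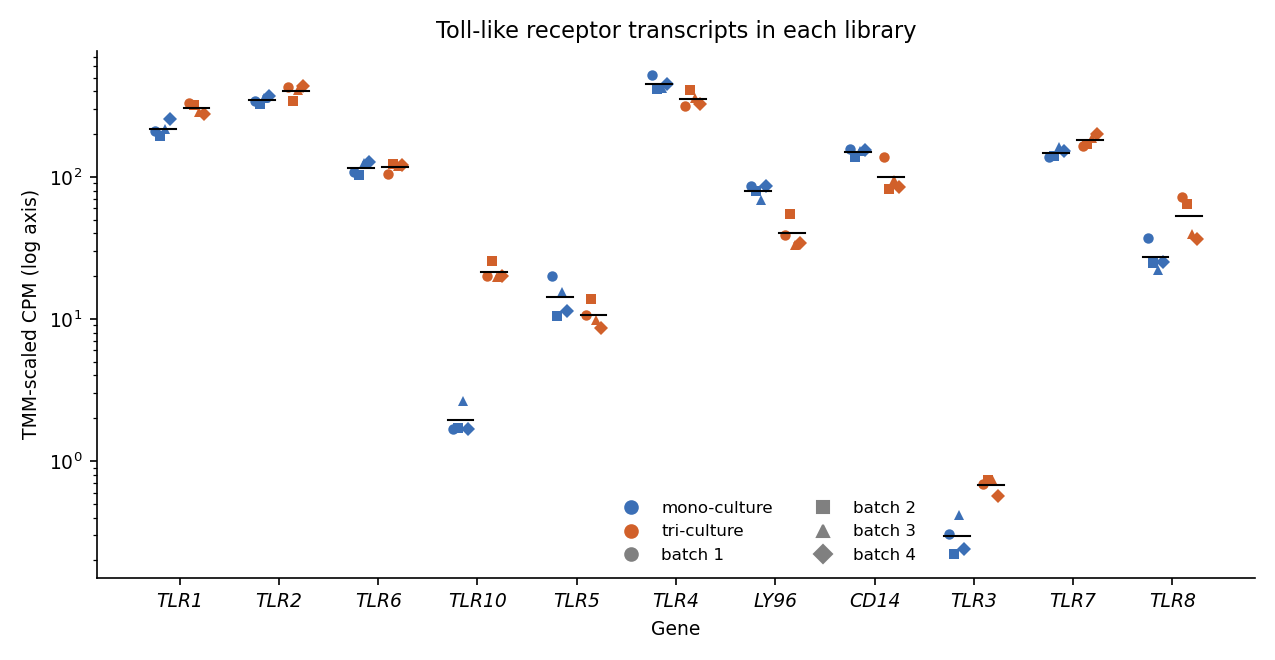
TMM-scaled CPM (log axis) of the 10 genes and TLR10 in each library, with mono-culture in blue, tri-culture in orange, the marker shape for the batch and a black bar for the group mean. LY96 sits between 69.1 and 86.3 CPM in mono-culture and between 32.9 and 54.7 CPM in tri-culture, while TLR6 has nearly the same mean in both.

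LY96 encodes MD-2, without which TLR4 does not bind LPS. Its level was 85.6, 79.5, 69.1 and 86.3 CPM in mono-culture replicates 1 to 4 and 39.0, 54.7, 32.9 and 34.0 CPM in the tri-culture replicates. Every tri-culture library lay below every mono-culture library, the highest of them being replicate 2. LY96 fell by 0.99 ± 0.16 on the log2 scale, 1.99-fold (80.1 ± 7.97 to 40.2 ± 10.0 CPM, edgeR adjusted p = 0.000389). The within-batch log2 ratios were -1.13, -0.54, -1.07 and -1.34.

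CD14 encodes the surface and soluble protein that passes LPS on to the receptor complex, and it is also a widely used monocyte marker. Its level was 157, 139, 152 and 155 CPM in mono-culture and 138, 82.3, 94.3 and 85.1 CPM in tri-culture. Tri-culture replicate 1 was near the lowest mono-culture library and the other 3 were well below. CD14 fell by 0.60 ± 0.15 on the log2 scale, 1.51-fold (edgeR adjusted p = 0.0105), and it was lower in 4 of 4 batches, by -0.19, -0.75, -0.69 and -0.86. With both libraries of batches 3 and 4 left out the value was -0.44 and the call was lost (edgeR adjusted p = 0.197).

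TLR4 is the signalling receptor of the LPS complex. Its level was 523, 415, 421 and 448 CPM in mono-culture and 318, 409, 358 and 327 CPM in tri-culture. Tri-culture replicate 2 came within a few CPM of the lowest mono-culture library. TLR4 had a log2 fold change of -0.36 ± 0.13 that missed the threshold (edgeR adjusted p = 0.0544, range 0.0207 to 0.182 over the alternatives), with within-batch values of -0.72, -0.02, -0.23 and -0.45. On plain library totals batch 2 went the other way (388 and 409 CPM, the tri-culture library being the higher). Without tri-culture replicate 2 it was called (edgeR adjusted p = 0.0229), as it was by DESeq2 (adjusted p = 0.0207).

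**Figure D2:**
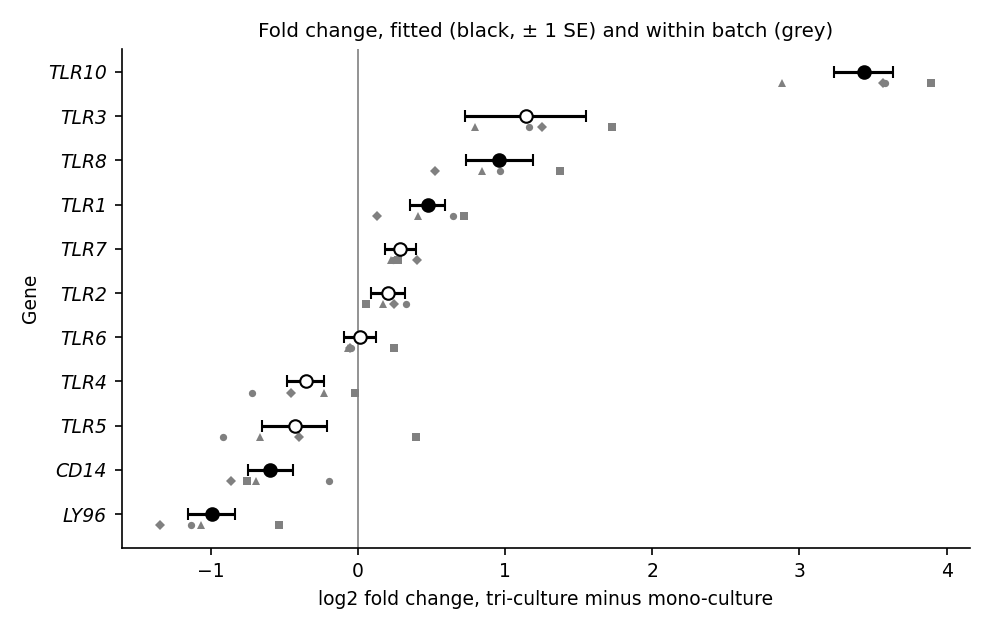
Log2 fold change, tri-culture minus mono-culture, of the 10 genes and TLR10, with bars of 1 SE; black points have an adjusted p under 0.05, open points do not, and grey marks are the log2 CPM ratios within each batch (circle 1, square 2, triangle 3, diamond 4). TLR8 (0.96) and LY96 (-0.99) are the members farthest from 0 that passed the test, and the open point of TLR3 (1.14) has the widest bar.

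Stretches before the start site are shown for genes on both sides of the test, to set them beside the unmoved level of SPI1, whose product PU.1 binds purine-rich sites in myeloid cells. Of the 10 genes, 7 matched the RefSeq promoter table (GRCh38.p14), which holds 250 bases before to 50 after each start site; TLR1, TLR7 and LY96 did not. The PU.1 core GAGGAA, searched on both strands, was in the windows of TLR4, TLR6 and CD14, 3 of 7, and in 27.9% of 35116 promoters. Capitals mark that core or its reverse complement, and each sequence runs 5′ to 3′ along the gene. The 250 bases before TLR6 (chr4:38856818-38857067, minus strand), a gene with no change called, and before TLR8 (chrX:12906370-12906619, plus strand), which rose, hold no annotated exon; the TLR6 core lies 195 to 190 bases before the start and the TLR8 stretch holds none.
TLR6: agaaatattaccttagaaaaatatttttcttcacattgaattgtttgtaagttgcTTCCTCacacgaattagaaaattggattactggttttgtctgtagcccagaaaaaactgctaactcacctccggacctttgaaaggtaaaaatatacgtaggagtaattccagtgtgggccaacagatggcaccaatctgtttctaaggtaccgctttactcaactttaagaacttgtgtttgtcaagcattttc
TLR8: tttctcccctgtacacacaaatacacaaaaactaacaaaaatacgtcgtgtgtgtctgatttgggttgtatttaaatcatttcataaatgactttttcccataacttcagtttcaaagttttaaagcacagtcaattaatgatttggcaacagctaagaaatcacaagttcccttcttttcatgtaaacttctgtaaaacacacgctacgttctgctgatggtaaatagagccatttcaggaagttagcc
For CD14 (chr5:140633254-140633283, minus strand) and TLR4 (plus strand, chr9:117704167-117704196, chr9:117704220-117704249, chr9:117704292-117704321 and chr9:117704351-117704380, in that order) 30 bases around each core are given, with 1 core for CD14 and 4 for TLR4, each TLR4 line naming the core's first base counted from the start site.
CD14: ggggctggctcgGAGGAAgagaggtgggga
TLR4 (-224): aagccaactagcTTCCTCttgctgtttctt
TLR4 (-171): tcttcttctaacTTCCTCtcctgtgacaaa
TLR4 (-99): tgccgctttcacTTCCTCtcaccctttagc
TLR4 (-40): gtggggcggctcGAGGAAgagaagacacca
The other motifs searched on both strands were NF-kB (in 0 of the 7 windows and 11.3% of all promoters), the interferon-stimulated response element ISRE (TLR3 only, 3.57% of all) and AP-1, TGANTCA (CD14 only, 7.71% of all). Unlike the TLR6 and TLR8 stretches, the 250 bases before CD14 hold annotated exon of CD14, and those before TLR4 hold exon of TLR4 and AL160272.2. The annotated CD14 gene, on the minus strand, reaches to 140633701, and TLR4, on the plus strand, begins at 117704175. The CD14 and TLR4 cores shown therefore lie inside the annotated genes, and whether they fall in an exon was not tested. A match is a description of the letters and not a bound site. For PU.1 only GAGGAA was searched, so a stretch without it is not shown to lack a site.

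TLR1 and TLR6 are close relatives that each pair with TLR2, TLR1 for triacylated and TLR6 for diacylated lipoproteins. TLR1 was at 210.2, 194, 217 and 254 CPM in mono-culture and 329, 319.7, 288 and 277 CPM in tri-culture. All 4 tri-culture libraries were above all 4 mono-culture libraries, most narrowly in batch 4. TLR1 rose by 0.47 ± 0.12 on the log2 scale, 1.39-fold (edgeR adjusted p = 0.00878), with within-batch log2 ratios of 0.65, 0.72, 0.41 and 0.13. With both libraries of batches 1 and 2 left out the value was 0.27 and the call was lost (edgeR adjusted p = 0.0784).

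TLR6 was at 107, 104, 125 and 127 CPM in mono-culture and 104, 123, 119.6 and 122 CPM in tri-culture. The groups overlapped throughout, and 3 of 4 batches were lower and 1 higher. The log2 fold change was 0.02 ± 0.11 with an approximate 95% interval of -0.20 to 0.23 (edgeR adjusted p = 0.940).

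TLR2, the shared partner, was at 342, 328, 361 and 369.6 CPM in mono-culture and 428, 341, 406 and 439 CPM in tri-culture. It was higher in 4 of 4 batches, but tri-culture replicate 2 lay within the mono-culture range. The log2 fold change of 0.20 ± 0.12 (approximate 95% interval -0.02 to 0.43) did not pass the test (edgeR adjusted p = 0.230).

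TLR1 and TLR6 lie on the minus strand of chromosome 4, at 38790677 to 38856817 and 38823715 to 38856817 in GENCODE 29 on GRCh38, and share 57 exon bases. Of 10 annotated TLR1 transcripts, 1 starts at the TLR6 start. Of their 100-base stretches in GENCODE 29, 2.48% of those of TLR1 also occur in TLR6 and 1.96% of those of TLR6 in TLR1. For TLR4, 3.44% of these stretches are shared with the overlapping gene AL160272.2, and for the other 7 genes none are shared in GENCODE 29. The second deposited table implies a length 2.79 times the GENCODE exon length for TLR1 and 1.58 times for TLR2. The share of reads that the authors' counting could split between TLR1 and TLR6 is therefore not known.

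TLR10 belongs to the same gene cluster but lies outside the 10 genes; it is the family member without a settled ligand. Its level was 1.68, 1.72, 2.65 and 1.68 CPM in mono-culture and 20.1, 25.6, 19.6 and 19.95 CPM in tri-culture, from 197 and 1881 counts in all. The groups lay far apart. TLR10 rose 10.8-fold, by 3.44 ± 0.20 on the log2 scale (edgeR adjusted p = 1.16e-07). TLR9, a receptor for DNA, had 0 counts in mono-culture and 1 in tri-culture and was not tested.

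TLR5 recognises bacterial flagellin. It was at 20.1, 10.5, 15.5 and 11.3 CPM in mono-culture and 10.7, 13.8, 9.75 and 8.57 CPM in tri-culture. The groups overlapped and 3 of 4 batches were lower in tri-culture. Its log2 fold change of -0.43 ± 0.22 did not pass the test (edgeR adjusted p = 0.179). Without mono-culture replicate 1, the highest library, the value was -0.22 (edgeR adjusted p = 0.511).

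TLR7 and TLR8 are neighbouring genes on the X chromosome, 16239 bases apart, that encode sensors of single-stranded RNA. TLR8 was at 37.0, 24.8, 22.2 and 25.3 CPM in mono-culture and 72.1, 64.4, 39.9 and 36.4 CPM in tri-culture. Tri-culture replicates 1 and 2 were well above the rest, and replicate 4 lay just below mono-culture replicate 1. TLR8 rose by 0.96 ± 0.23 on the log2 scale, 1.95-fold (edgeR adjusted p = 0.00634), and was higher in 4 of 4 batches, by 0.96, 1.38, 0.84 and 0.53.

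TLR7 was at 139, 139.9, 161 and 152 CPM in mono-culture and 164, 169, 189 and 200.3 CPM in tri-culture. Each tri-culture library was above each mono-culture library, the closest pair being tri-culture replicate 1 and mono-culture replicate 3. The log2 fold change of 0.29 ± 0.11 missed the threshold (edgeR adjusted p = 0.0648, range 0.027 to 0.243 over the alternatives). TLR7 was called by DESeq2 (adjusted p = 0.0387).

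TLR3 reads double-stranded RNA and signals through TICAM1 rather than MYD88. It was close to the detection limit, with 9, 4, 14 and 4 counts in mono-culture and 15, 18, 16 and 11 in tri-culture, or 0.297 ± 0.0886 and 0.680 ± 0.0749 CPM. All 4 tri-culture libraries were above all 4 mono-culture libraries. The log2 fold change of 1.14 ± 0.41 missed the threshold (edgeR adjusted p = 0.0569, range 0.0438 to 0.27 over the alternatives). Because TLR3 was tested only through tri-culture, where it is high, its separation and its calls in some alternatives are no support for a rise.

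Levels of different genes were compared on the second deposited table, whose values follow exon length (Spearman rho = 0.865 between the count-to-value ratio and GENCODE exon length over 10445 genes, a description across genes). In mono-culture the order of the mean signal was LY96 (514 ± 54.3), CD14 (329 ± 22.4), TLR2 (147 ± 9.03), TLR4 (122 ± 15.02), TLR7 (102 ± 7.58), TLR6 (60.3 ± 6.49), TLR1 (59.7 ± 7.35), TLR8 (22.5 ± 5.68), TLR5 (5.23 ± 1.67) and TLR3 (0.137 ± 0.0413). The ranges of TLR2 and TLR4, TLR4 and TLR7, and TLR6 and TLR1 overlapped, and the other neighbours were apart. LY96 stood above 98.9% of tested genes and TLR3 above 2.88%.

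In tri-culture the order was LY96 (260 ± 66.5), CD14 (219 ± 55.6), TLR2 (171 ± 17.3), TLR7 (125 ± 11.2), TLR4 (96.1 ± 11.9), TLR1 (83.4 ± 7.05), TLR6 (61.3 ± 4.80), TLR8 (44.1 ± 14.7), TLR5 (3.91 ± 0.842) and TLR3 (0.315 ± 0.0373). The ranges of LY96 and CD14, and of CD14 and TLR2, overlapped here, TLR7 stood above TLR4, and TLR1 above TLR6. The ranges of TLR4 and TLR1, and of TLR6 and TLR8, overlapped. The length implied by the deposited values is 2.79 times the GENCODE exon length for TLR1 and 1.58 times for TLR2, so their place on this scale depends on the authors' gene model.

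**Figure D3:**
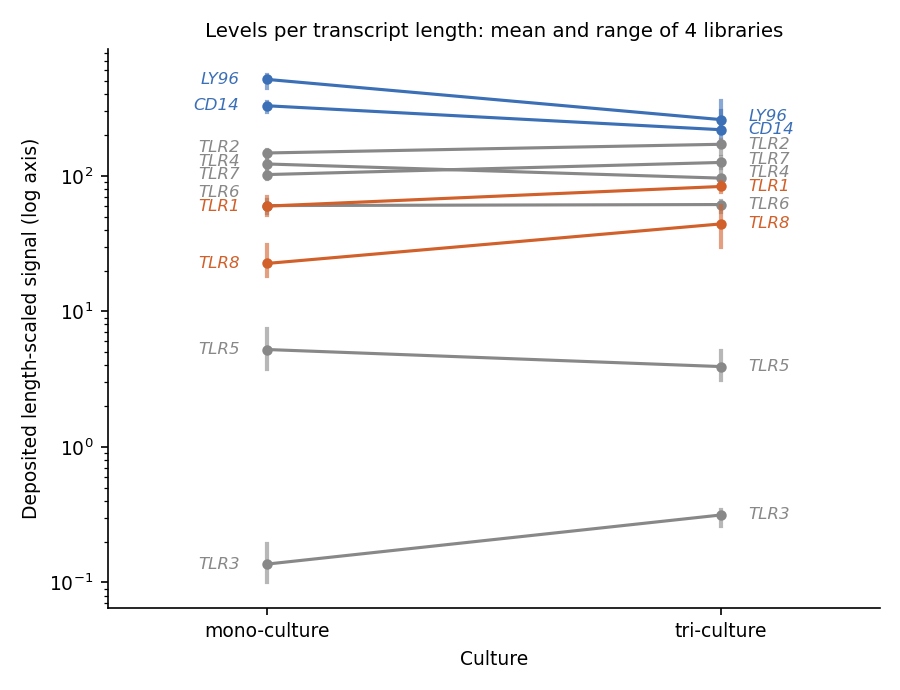
Deposited signal (log axis) of the 10 genes, with points for the group means of mono-culture (left) and tri-culture (right), a line joining the means of a gene and bars for the range of 4 libraries; orange genes were called higher, blue lower and grey not called. LY96 and CD14 lead in both groups, and TLR5 and TLR3 are last in both.

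Whether partner genes moved by unequal amounts was asked within each library, as the log2 CPM of one gene minus that of the other, for 5 pairs. LY96 relative to TLR4 averaged -2.49 ± 0.132 in the mono-culture libraries against -3.16 ± 0.242 in the tri-culture libraries (SD, n = 4 each), without overlap and lower in 4 of 4 batches. The 2-sided exact permutation p of 0.0286 is the smallest that 4 against 4 libraries can give, and adjusted over the 5 pairs it was 0.143. TLR1 relative to TLR2 differed by 0.28 (exact permutation p = 0.0571, adjusted 0.143), higher in 3 of 4 batches. TLR7 relative to TLR8 differed by -0.64 (exact permutation p = 0.143, adjusted 0.238) and was lower in 4 of 4 batches, by -0.72, -1.10, -0.62 and -0.12; the 2-sided exact sign-flip p of 0.125 is the smallest that 4 batches can give. TLR6 relative to TLR2 differed by -0.18, lower in 3 of 4 batches (exact permutation p = 0.200, adjusted 0.250), and CD14 relative to TLR4 by -0.27, with batch 1 going the other way (exact permutation p = 0.314, adjusted 0.314). No pair passed after adjustment. A pair alone at the smallest p could not pass over 5 pairs, whatever its separation, so this outcome decides nothing about LY96 and TLR4. The pairs were chosen with earlier results of these data known.

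**Figure D4:**
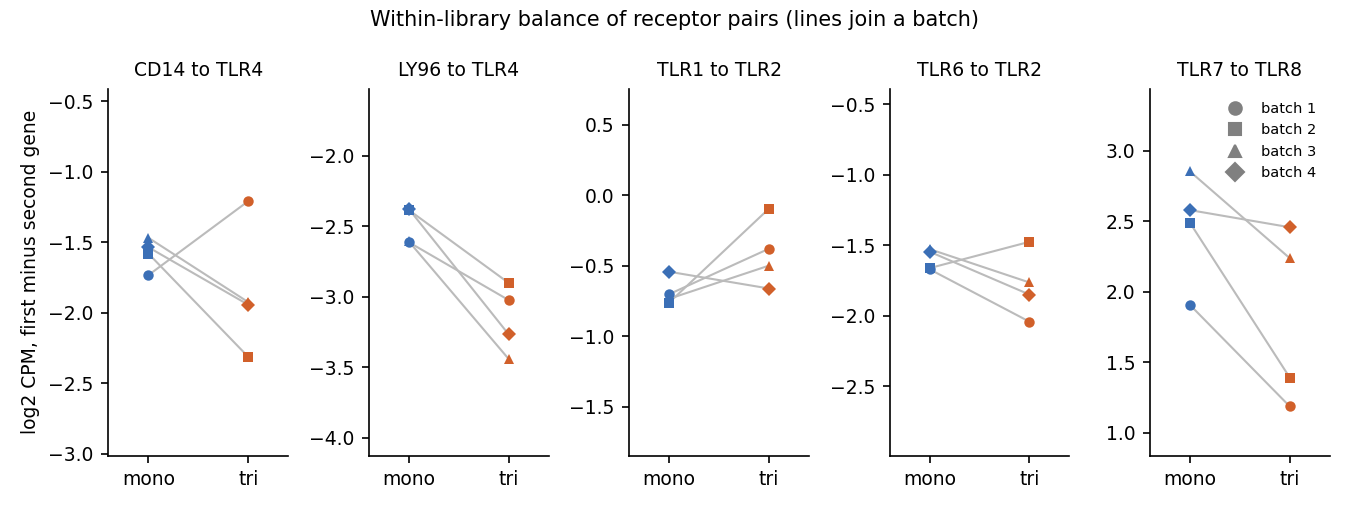
Log2 CPM of the first gene minus the second within each library, for the 5 pairs, with mono-culture in blue, tri-culture in orange and grey lines joining the libraries of a batch; the panels have the same span but different positions. LY96 to TLR4 falls in all 4 batches without overlap, and CD14 to TLR4 rises in batch 1 and falls in the other 3.

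Other genes of the pathway were read from 7 lists of 72 genes, of which 64 were tested, 9 called higher and 19 lower (43.8% called, beside 26.9% of all tested genes, median log2 fold change -0.10). The 9 higher include TRIL, which was tested only through tri-culture, where it is high. The lists were chosen with earlier results of these data known, so the share called describes these lists and supports no difference from all genes. Of 6 adaptors 2 fell. TICAM1, the adaptor of TLR3 and of endosomal TLR4, fell by 0.65 on the log2 scale (26.4 ± 2.03 to 16.8 ± 2.61 CPM, edgeR adjusted p = 0.00312), and PIK3AP1, which links these receptors to PI3-kinase, fell by 0.76 (adjusted p = 0.000203). MYD88 was at 81.9 ± 3.25 and 77.4 ± 8.89 CPM and did not pass (adjusted p = 0.631).

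Of 16 kinases and ubiquitin ligases 4 fell and 1 rose. The receptor-associated kinase IRAK2 fell by 1.01 on the log2 scale (25.7 ± 4.62 to 12.7 ± 1.05 CPM, edgeR adjusted p = 0.000274), IRAK1 fell by 0.42 (adjusted p = 0.00731) and the ligase TRAF3 fell by 0.42 (adjusted p = 0.00846). PELI1, another ligase, rose by 0.49 (adjusted p = 0.0161). Of 7 transcription factors 1 rose, IRF8, a factor of the myeloid lineage (291 ± 47.2 to 487 ± 43.5 CPM, adjusted p = 0.00103). With the batch as a block REL was also called higher (0.52 on the log2 scale, adjusted p = 0.00785, beside 0.097 without it), making 2 of 7.

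Of 9 negative regulators 2 rose and 1 fell. CD180, a receptor-like protein without a signalling domain, rose by 0.85 on the log2 scale (129.5 ± 6.99 to 233 ± 21.1 CPM, edgeR adjusted p = 5.73e-05). The deubiquitinase TNFAIP3 fell by 0.48 (adjusted p = 0.00559) and IRAK3 rose by 0.38 (adjusted p = 0.042). IRAK3 was near the threshold. The count called higher in this list was 1 on leaving out any 1 mono-culture library, tri-culture replicate 3 or tri-culture replicate 4. The same held without the low-count filter and with limma on the deposited signal. Of 6 genes for folding and trafficking 2 rose and 2 fell. UNC93B1, which carries the endosomal receptors out of the endoplasmic reticulum, fell by 0.53 (122 ± 16.8 to 84.3 ± 9.01 CPM, adjusted p = 0.00645), and the chaperone HSP90B1 did not pass (643 ± 100.4 and 714 ± 88.3 CPM, adjusted p = 0.506). TASL and CNPY4 rose and CNPY3 fell (adjusted p = 0.0359, 0.0369 and 0.0365). Neither rise was called without mono-culture replicate 1, 3 or 4 or without tri-culture replicate 1 or 2, where the count of genes called higher in this list was 0.

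Of 7 other family members and ligand-handling genes 5 were tested, with 2 higher and 2 lower. Besides TLR10, the TLR4 interactor TRIL rose from 1 count to 103, a ratio of 115 with a 95% counting interval of 20.1 to 4570 (edgeR adjusted p = 7.62e-05). TRIL lay under the filter level in all 4 mono-culture libraries and was tested only through tri-culture, so its call had to be a rise and counts for nothing beyond these values. The scavenger receptor CD36 fell by 0.95 on the log2 scale (2409 ± 456 to 1243 ± 136 CPM, adjusted p = 0.000731) and the integrin gene ITGAM went down from 173 ± 32.3 to 61.3 ± 33.4 CPM (adjusted p = 0.00383). Astrocytes also express TRIL, and the astrocyte markers given above moved in the same libraries; their part was not tested.

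Of 21 target genes 15 were tested, and 8 fell and 1 rose (median log2 fold change -0.65). The chemokine gene CCL2 fell by 4.67 on the log2 scale (77.3 ± 24.6 to 3.04 ± 0.853 CPM, edgeR adjusted p = 1.21e-07), the adhesion gene ICAM1 fell by 1.36 (adjusted p = 1.04e-05) and the NF-kB inhibitor NFKBIA by 0.65 (adjusted p = 0.000927). IL1B, a cytokine gene, went the other way and rose by 1.46 (35.2 ± 14.0 to 96.6 ± 3.19 CPM, adjusted p = 0.000897). With the batch as a block IL1A was also called higher and CXCL10 lower (adjusted p = 0.0364 and 0.0478, beside 0.0701 and 0.0509 without it), giving 2 higher and 9 lower.

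**Figure D5:**
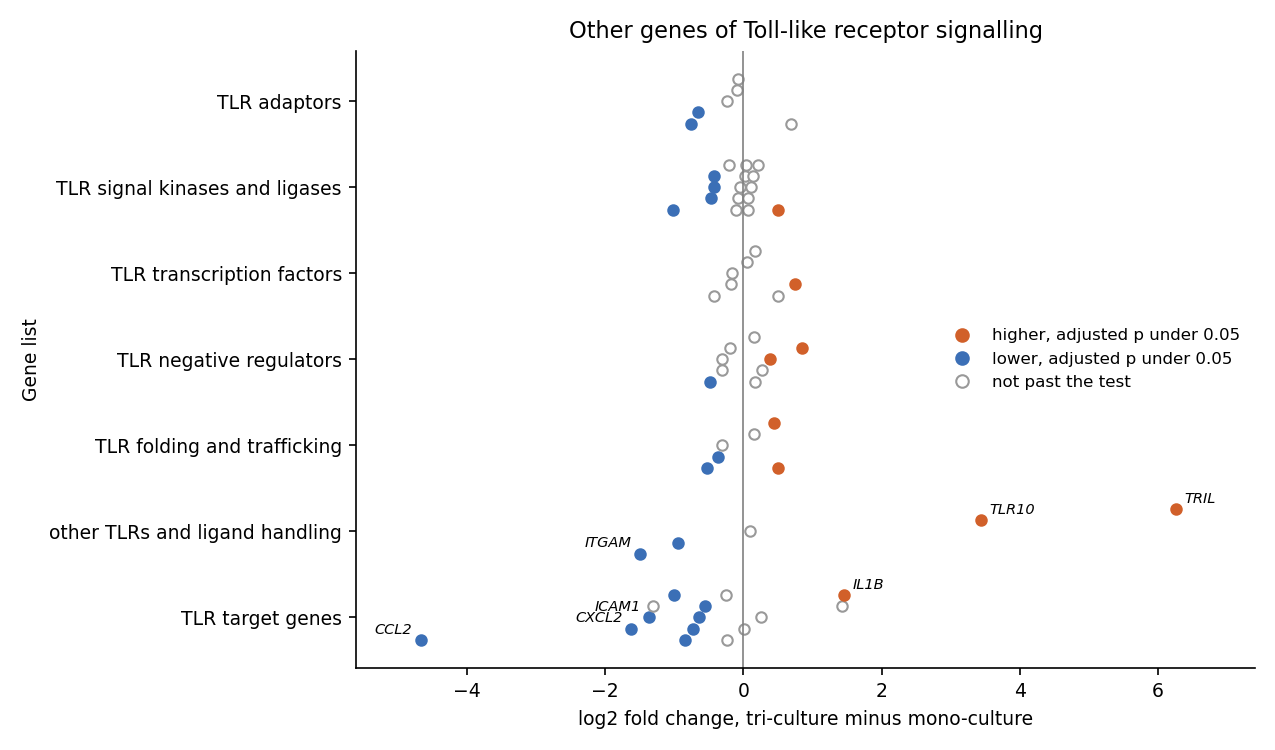
Log2 fold change, tri-culture minus mono-culture, of the 64 tested genes in the 7 pathway lists, each point a gene, orange called higher, blue called lower and open not called; names are given where the absolute value is large. The target genes lie mostly below 0, with CCL2 at -4.67, and IL1B at 1.46 is the target gene called higher in the fit without a batch block.

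The genes most like a member over the 8 libraries were ranked by the root mean square difference of centred log2 CPM among 14368 tested genes with a symbol. For TLR8 they were F8, TCFL5 and TSPAN13 (0.153, 0.162 and 0.170), and the nearest of the 10 genes was TLR3 (0.395). For LY96 they were PRPS1, NECTIN3 and VWA5A (0.126, 0.128 and 0.135), and the nearest of the 10 was TLR4 (0.372). TLR3 was tested only through tri-culture, where it is high, so its nearness to TLR8 is no support for a shared pattern.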

How the data were processed

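Total RNA of sorted microglia was measured in 8 libraries, 4 mono-culture and 4 tri-culture, 1 of each in 4 batches. The authors deposited raw counts per gene, for which the submitters' processing notes name HISAT2 2.1.0, featureCounts 2.12.3 and GRCh38. Which annotation release and strand setting were used is not given in these sources. A second deposited table holds a normalized signal by the authors, which sums to a different total in each library and follows exon length; it was used for levels and for 1 alternative.

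Counts were filtered with filterByExpr (minimum count 10, minimum total 15) and tested with edgeR 4.0.16 (R 4.3.3; TMM, robust quasi-likelihood test). The SE is approximate, taken from the F statistic as the fold change (log2, without sign) over its root. Printed CPM use TMM-scaled library sizes. They were first computed over plain library totals, and the TMM scale was chosen after those values were seen, because it is the scale of the test; it changed no test or call, but it changed which groups overlap and which libraries stand apart, so both versions are given. Within-library balances do not depend on this scale.

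Alternatives were other scalings and filters, DESeq2 1.42.0, limma 3.58.1 on log2 of the deposited signal plus 0.5, the batch as a block, and each library left out. Leaving out pairs of batches was added after seeing the data. Batch numbers come from the labels; the correlations of deviations within batches were 0.183, 0.125, 0.257 and 0.0773. Libraries within a group varied beyond counting noise (chi-square per degree of freedom 9.47 to 67.4). On simulated counts for 16249 genes the test recovered 26% of genes changed 1.5-fold, 80% at 2-fold and 100% at 4-fold, with 3 false calls. The simulation gave every gene the same spread (biological coefficient of variation 0.206) and no batch. It changed only genes above a set mean count. These rates are therefore not the power or error for the real libraries.

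Named genes were the 10 members, TLR9, TLR10, up to 4 genes per pathway list with the smallest adjusted p, MYD88, TICAM1, UNC93B1 and HSP90B1, and for 1 member in each direction the 3 most similar genes. The members and lists were chosen with earlier results of these data known.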

Additional observations from a re-analysis of the deposited data

Results flagged for a closer look

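On the TMM-scaled values, 3 of 22 groups of 4 libraries held 1 library apart from the others (its gap to the next, over the range, past Dixon's critical value for 4; the ratio is in parentheses); chance gives about 1 in 20 groups. TLR6 in tri-culture replicate 1 was the lowest of its group at 104 CPM (0.839). TLR10 in mono-culture replicate 3 was the highest of its group at 2.65 CPM (0.956), and TLR10 in tri-culture replicate 2 was the highest of its group at 25.6 CPM (0.92). On plain library totals 2 groups held such a library, LY96 in tri-culture replicate 2 at 54.8 CPM (0.839) and TLR10 in mono-culture replicate 3 at 2.67 CPM (0.945). TLR10 in mono-culture replicate 3 is thus the case that did not depend on the scale.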

How the results depend on the processing

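TLR8, LY96 and TLR10 kept their direction and call in all 17 alternatives, with log2 fold changes of 0.69 to 1.14, -1.21 to -0.82 and 3.13 to 3.74. With library size only, 4 members were called higher; with batches 1 and 2 left out, 4 were called lower, and with batches 3 and 4 left out, 1 (LY96). The cause was not tested. The 2 fits without a pair of batches also had fewer samples. TLR6, near 0, changed sign without the low-count filter (-0.0041), with batches 1 and 2 left out (-0.0591) and on leaving out single libraries (-0.0404 to 0.0637). The batch numbers of the labels pair the libraries; with the batch as a replicate block 2 members were called higher and 2 lower, as without it, and TLR8 was at 0.93 (edgeR adjusted p = 0.000185), so the block changed no member's call. It added 3 calls among the pathway genes (REL and IL1A higher, CXCL10 lower), giving 11 higher and 20 lower over all the lists. TLR5 was called with batches 1 and 2 left out (edgeR adjusted p = 0.043), and TLR3 with library size only (0.0438) and with limma on the signal (0.0491). The number of members whose groups do not overlap was 6 on the TMM scale and 4 on plain library totals, a scale choice made after both were seen. Both counts include TLR3, which was tested only through tri-culture. Among the small pathway lists, leaving out single libraries gave 0 to 1 folding and trafficking genes called higher and 1 or 2 lower, 1 or 2 negative regulators higher and 1 or 2 lower, 1 or 2 transcription factors higher, and 0 kinases and ligases higher without mono-culture replicate 2; with library size only, 2 kinases and ligases and 1 trafficking gene were called lower. Over all the lists together the counts stayed within 1.5 times of 9 higher and 19 lower. The depth limits TLR3, with 31 counts in mono-culture and 60 in tri-culture.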
